A study of Mus musculus with 2 samples.

Results

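The Cyp2c40 group is a set of 4 near-identical cytochrome P450 genes of mouse chromosome 19, Cyp2c40, Cyp2c67, Cyp2c68 and Cyp2c69, whose transcripts were measured in liver with and without Pgrmc1. They were taken by symbol from a table of 24054 genes, of which 16318 were also in a second deposited table, and all 4 were in both. The group was selected with the difference between the KO and WT libraries already seen, so the changes of its members are described here and not tested. Liver RNA came from male mice aged 8 to 12 weeks, labelled C57BL/6. The WT mice carried an intact Pgrmc1, and the Pgrmc1 KO mice (Pgrmc1 -/Y) lacked it in the whole body, after Sox2-Cre, which acts in the early embryo, removed floxed exons 1 and 2. The floxed allele was made in C57BL/6N cells, and the Cre line was B6.Cg-Tg(Sox2-cre)1Amc/J. RNA of 5 mice per genotype, 2.5 μg each, was pooled, and 1 stranded total RNA library was sequenced per genotype. No replicate check exists for any difference, no p-value was computed, and differences between the mice of a pool cannot be seen.

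Cytochrome P450 enzymes of the endoplasmic reticulum oxidise drugs, steroids and fatty acids with electrons from P450 oxidoreductase. The Cyp2c subfamily is much larger in the mouse than in humans, lies for the most part in 1 cluster on chromosome 19, and includes enzymes that turn arachidonic acid into epoxy and hydroxy fatty acids, among them Cyp2c40, an arachidonic acid hydroxylase known from mouse intestine. Many Cyp2c genes of the liver follow the sex of the animal and the pattern of growth hormone secretion. Pgrmc1 is a heme-binding membrane protein that associates with P450 enzymes.

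The 4 genes were hard to tell apart by sequence. In the GENCODE M21 transcripts on GRCm38, each had 9 exons on the minus strand. The annotated coding part was 1560 bases long in Cyp2c40 and 1473 in each of the others. In all 4, 1473 coding bases could be aligned, of which 66 (4.48%) varied. The comparisons that follow leave out the further coding bases of Cyp2c40. Identity of the coding bases was lowest between Cyp2c68 and Cyp2c69, at 96.5% with 51 differences, and highest between Cyp2c40 and Cyp2c68, at 98.1% with 28 differences. Cyp2c40 and Cyp2c69 differed at 31 bases. The bases held by 1 member alone numbered 3 in Cyp2c40, 11 in Cyp2c67, 14 in Cyp2c69 and 17 in Cyp2c68, and the longest stretch of coding sequence identical in all 4 ran for 113 bases. A stretch of 80 coding bases within the last exon is given because 4 of its 5 variable bases set Cyp2c69 apart from the other members. The lines read 5′ to 3′ on the minus strand of GRCm38, and capitals mark the bases that differ between members:
Cyp2c67, chr19:39609092-39609171: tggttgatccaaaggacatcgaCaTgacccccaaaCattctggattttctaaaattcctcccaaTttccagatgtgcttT
Cyp2c68, chr19:39689084-39689163: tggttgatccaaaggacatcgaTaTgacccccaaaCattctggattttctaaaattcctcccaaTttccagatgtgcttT
Cyp2c40, chr19:39767321-39767400: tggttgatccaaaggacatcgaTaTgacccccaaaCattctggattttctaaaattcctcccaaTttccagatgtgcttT
Cyp2c69, chr19:39842907-39842986: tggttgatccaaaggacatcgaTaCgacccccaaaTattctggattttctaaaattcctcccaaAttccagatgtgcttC
In this stretch Cyp2c40 and Cyp2c68 were identical, and Cyp2c67 differed from them at the first capital only.

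The reads were 100 bases long, so the share of 100-base windows of each transcript that occur unchanged in another gene bears on how reads could be assigned. That share was 44.1% for Cyp2c40, 36.3% for Cyp2c69, 23.7% for Cyp2c67 and 19.8% for Cyp2c68. Every shared window was shared within the group, and none occurred in a transcript of any gene outside it. Cyp2c69 had 29.5% of its windows in common with Cyp2c40, 15.1% with Cyp2c67 and 4.98% with Cyp2c68. The authors' counting program divides reads that fit several genes by an estimate, so the value of a single member depends on that division. The sum of reads over the 4 is free of the division among them. A sum of levels scaled by transcript length (TPM) is not wholly free of it, since the reads per TPM differed between members. In WT these ran from 24.9 in Cyp2c67 to 26.4 in Cyp2c40, in the authors' library-scaled units. Reads can also be aligned with mismatches, and a division with other Cyp2c genes was not tested. The reads were paired, and a pair spans more sequence than 1 window.

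**Figure D1:**
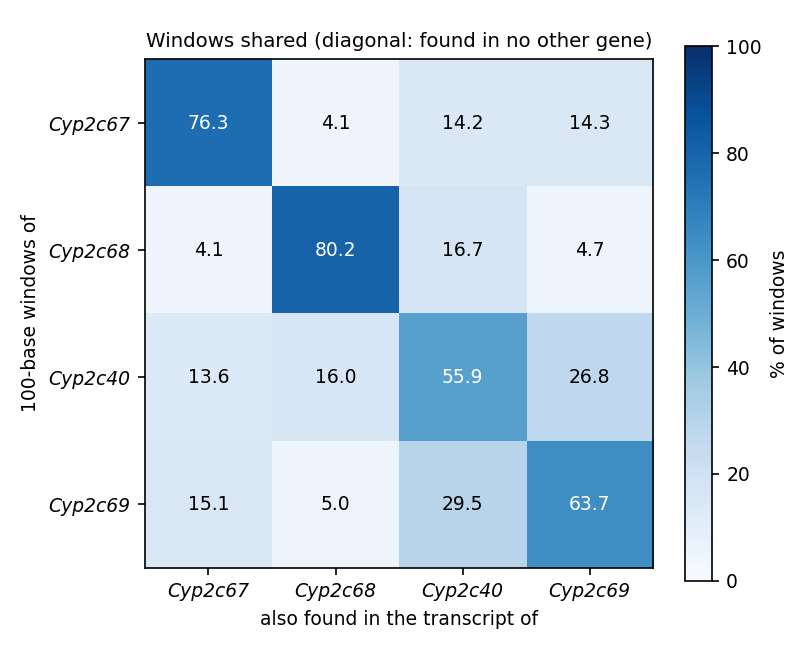
Share of 100-base windows of each member's transcript (rows, in %) found unchanged in the transcript of another member (columns), with the share found in no other gene on the diagonal. Cyp2c40 and Cyp2c69 share the most, with 26.8% of the windows of Cyp2c40 and 29.5% of those of Cyp2c69, while Cyp2c67 and Cyp2c68 share the least, with 4.10% and 4.12%.

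The sequences around the annotated starts of the genes were close as well. RefSeq promoters on GRCm38.p6, from 250 bases before to 50 after the annotated start, matched for all 4 members. Those of Cyp2c40 and Cyp2c69 were identical at 98.9% of aligned bases, and the other 5 pairs at between 91.6% and 94.4%. The 30 bases around the TATA box letters, called the box here, are given because Cyp2c68 departs from the others there. The lines read 5′ to 3′ on the minus strand of GRCm38.p6, and capitals mark the box or the bases aligned with it:
Cyp2c67, chr19:39649073-39649102: atattgatttgcaaatgatgTATAAAgtgt
Cyp2c68, chr19:39741084-39741113: tattgattttgcgaatgcacTACAAAgtgt
Cyp2c40, chr19:39812765-39812794: atattgatttgcgaatgctgTATAAAgtgt
Cyp2c69, chr19:39886750-39886779: atattgatttgcgaatgctgTATAAAgtgt
The box letters TATAAA, searched on both strands, occurred in Cyp2c40, Cyp2c67 and Cyp2c69 and in 13.6% of 32851 RefSeq promoters. Cyp2c68 held T3C in its place, counted from 1 at the first base of the box. Counted from the start on which each promoter window was set, the box began 40 bases before it in Cyp2c67, and at 10, 8 and 40 bases after it in Cyp2c69, Cyp2c68 and Cyp2c40. Whether these letters act as a TATA box in any member was not tested. That start was the end of the RefSeq gene span in 3 members and lay inside the span in Cyp2c67, so the windows were not equivalent between members. The HNF1 letters GTTAAT matched once, on the opposite strand, in Cyp2c40, Cyp2c68 and Cyp2c69, against 7.10% of all promoters. At the same distance from the box, the position in Cyp2c67 falls outside its window. That position was not searched, so whether Cyp2c67 differs from the other members there is not known. The STAT5 letters TTCNNNGAA and the nuclear receptor letters AGGTCA had no match in any of the 4 windows, and occurred in 8.30% and 16.3% of all promoters. No match of a motif overlapped that of another.

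The libraries followed their labels. Pgrmc1 was at 0.68 TPM (a level in which reads are scaled by transcript length and by library size) in KO and 949.49 TPM in WT. The liver markers were present, with Alb, which encodes albumin, at 47242 and 49729 TPM, and the summed markers of Kupffer, endothelial, bile duct and stellate cells lay between 61.96 and 187.84 TPM in either library, with none of these markers past the fold used here. The 4 red cell globin genes summed to 1293.92 TPM for KO and 1315.21 TPM for WT, and 1 of them, Hbb-bs, was down, at 41.29 against 77.14 TPM. Its part in the members' values was not tested. Intestinal markers were carried by 1 of 4 genes, at 140.37 TPM in KO and 128.09 in WT, and the lowest of them was at 0.01 in both. Taking the step between low values as 1 read, the genes of the second table held 22086137 estimated reads in KO and 29708994 in WT. A pooled tissue cannot tell fewer cells of a type from less RNA per cell.

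All 4 members were higher in the KO library, and the size of the difference ran from almost nothing in the most abundant gene to about 3-fold in the least abundant. A gene was called up at a fold of at least 1.4 and down at a fold of at most 0.6, where the fold is (KO TPM + 1)/(WT TPM + 1) and log2 changes are of the same quantity, which understates the change of low genes. On that rule 2 of 4 members, Cyp2c40 and Cyp2c69, were up, against 149 of 16318 genes (0.913%) in all, and no member was down, against 38 genes (0.233%). Since the members were chosen on this contrast, nothing is read from that count.

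Cyp2c67 (RefSeq gene 545288, chr19:39608844-39649079, GRCm38.p6, minus strand) was the most abundant of the 4, at 294.02 TPM in the KO library and 284.75 in the WT library. Its log2 change was 0.05, a fold of 1.03. In the second table, which holds the authors' mean signal per library, its value was 7395 in KO and 7085 in WT, from about 6363 and 8233 estimated reads. The 95% Clopper-Pearson interval of the log2 ratio of those means ran from 0.01 to 0.11. Such intervals cover counting error only, and neither the division of reads between near-identical genes nor the spread between mice. Against the other members, Cyp2c67 was nearly level between the libraries.

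Cyp2c68 (gene 433247, chr19:39688836-39741101, minus strand) was at 189.62 TPM in the KO library and 163.49 in the WT library. Its log2 change was 0.21, a fold of 1.16, with an interval of 0.17 to 0.29 on the log2 ratio of the means and 4272 and 4922 reads behind it. It lay under the fold of 1.4 and was the nearest member outside it, as Cyp2c40 was the nearest inside. Of the 4, Cyp2c68 had the smallest share of windows in common with other members.

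Cyp2c40 (gene 13099, chr19:39767073-39812814, minus strand) was at 53.29 TPM in the KO library and 33.68 in the WT library. Its log2 change was 0.65, a fold of 1.57. The authors' means were 1422 and 890.0, a ratio of 1.60, with 1224 reads in KO and 1034 in WT. The interval of 0.56 to 0.80 on the log2 scale lay above those of Cyp2c67 and Cyp2c68. This arachidonic acid hydroxylase had more estimated reads in the KO library although that library was the shallower. Added to Cyp2c68, the member with the most identical coding bases, it gave a log2 change of 0.30, a ratio of 1.23, which is under the fold of 1.4.

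Cyp2c69 (gene 100043108, chr19:39842660-39886769, minus strand) was the lowest of the 4, at 13.66 TPM in the KO library and 3.9 in the WT library. Its log2 change was 1.58, a fold of 2.99 on the TPM + 1 scale. The ratio of the authors' means was 3.56, from 307 reads in KO and 116 in WT, with an interval of 1.52 to 2.16 on the log2 scale. The gain in Cyp2c69, 257 units of the authors' mean, equalled 1.82% of what the 4 genes held together in KO. Cyp2c69 shared 36.3% of its windows with the other members, and the part of divided reads in its change was not tested.

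**Figure D2:**
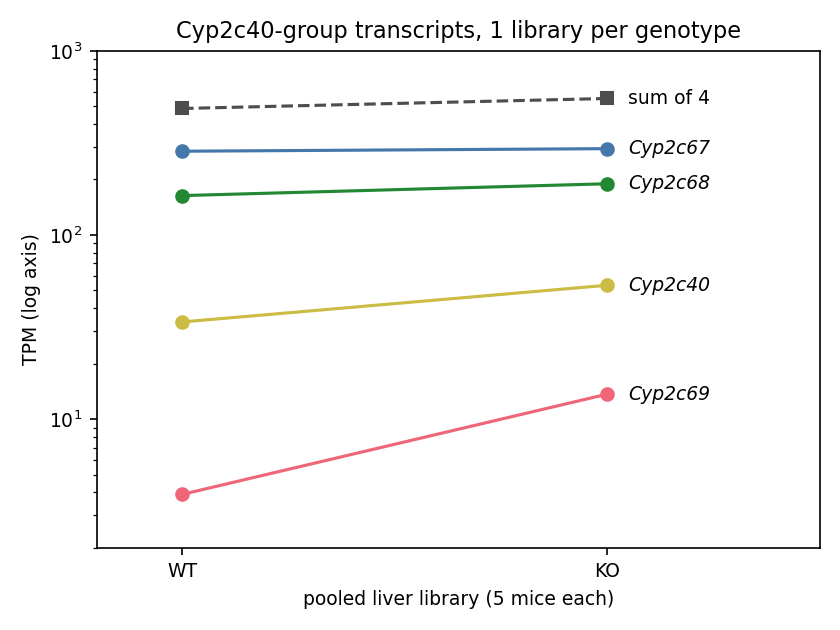
Level of each member in the WT and KO libraries (TPM, log axis), 1 pooled library per genotype, with the sum of the 4 as a dashed line. The order from Cyp2c67 through Cyp2c68 and Cyp2c40 to Cyp2c69 is the same in both, and the line of Cyp2c69, from 3.9 to 13.66 TPM, is the steepest.

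The order of levels was the same in both libraries, but the distances between members shrank. Cyp2c67 was 73.0 times as high as Cyp2c69 in WT and 21.5 times in KO. Over Cyp2c40 it was 8.45 times as high in WT and 5.52 times in KO, and over Cyp2c68 1.74 and 1.55 times. The share of Cyp2c67 in the summed TPM of the group was 58.6% in WT and 53.4% in KO. Cyp2c40 made up 6.93% in WT and 9.68% in KO, and Cyp2c69 0.803% and 2.48%. The share of Cyp2c68 differed least, at 33.7% and 34.4%.

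**Figure D3:**
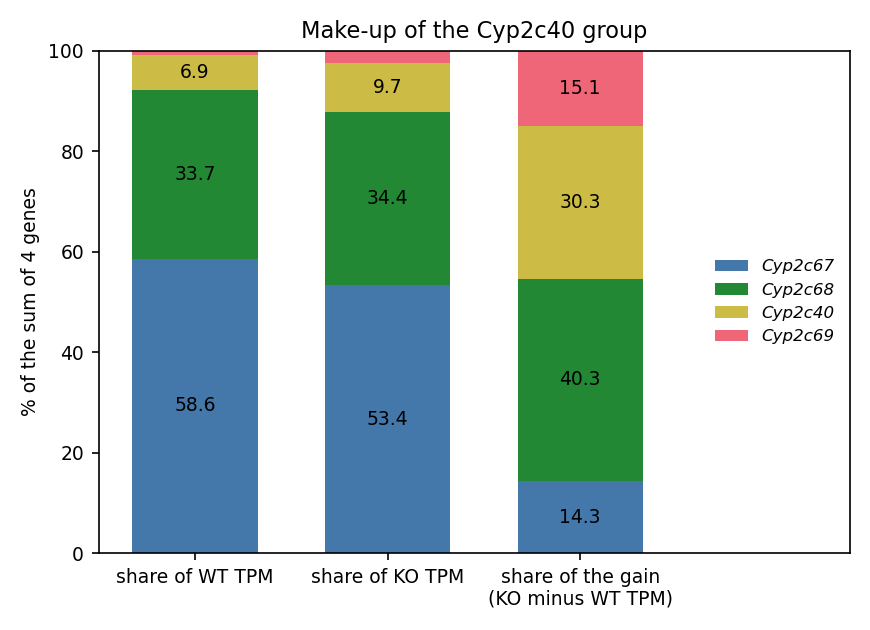
Make-up of the summed TPM of the group in WT and in KO, and of the gain from WT to KO, as the percentage from each member. Cyp2c69 is 0.803% of the group in WT and 15.1% of the gain, and Cyp2c68 gives the largest part of the gain, 40.3%.

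Summed, the 4 genes were at 550.59 TPM in the KO library and 485.82 in the WT library, 13.3% higher in KO, a log2 change of 0.18. The ratio of the summed means was 1.15, with an interval of 0.16 to 0.23 on the log2 scale. Of the gain of 64.77 TPM, Cyp2c68 gave 40.3%, Cyp2c40 30.3%, Cyp2c69 15.1% and Cyp2c67 14.3%. Neither called member gave the largest part. The pair with the most 100-base windows in common, Cyp2c40 and Cyp2c69, was at 66.95 TPM in the KO library and 37.58 in the WT library when added together, a log2 change of 0.82. The pair with the most identical coding bases, Cyp2c40 and Cyp2c68, was at 242.91 and 197.17 TPM, a log2 change of 0.30. Cyp2c67 and Cyp2c68 together were at 483.64 and 448.24 TPM, a log2 change of 0.11. The result for the sum leaned on the most abundant member, since without Cyp2c67 the log2 change of the other 3 was 0.35.

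The means gave the same calls among the members. By the ratio of the authors' means (with 1 unit added to each), Cyp2c40 and Cyp2c69 were past the fold of 1.4, but so were 1072 of 16318 genes (6.57%), and 457 genes (2.8%) were past 0.6 with no member among them. On the TPM scale, the 5th and 95th percentiles of the log2 changes of the 6184 genes averaging 10 TPM or more were -0.25 and 0.19, with a median of -0.02. Cyp2c67 lay inside that range, Cyp2c68 just above its upper end, and Cyp2c40 well above it. Since the members were chosen on this contrast, these places describe size only, and nothing more is read from them. Cyp2c69, with a mean of 8.78 TPM, was under the 10 TPM minimum.

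**Figure D4:**
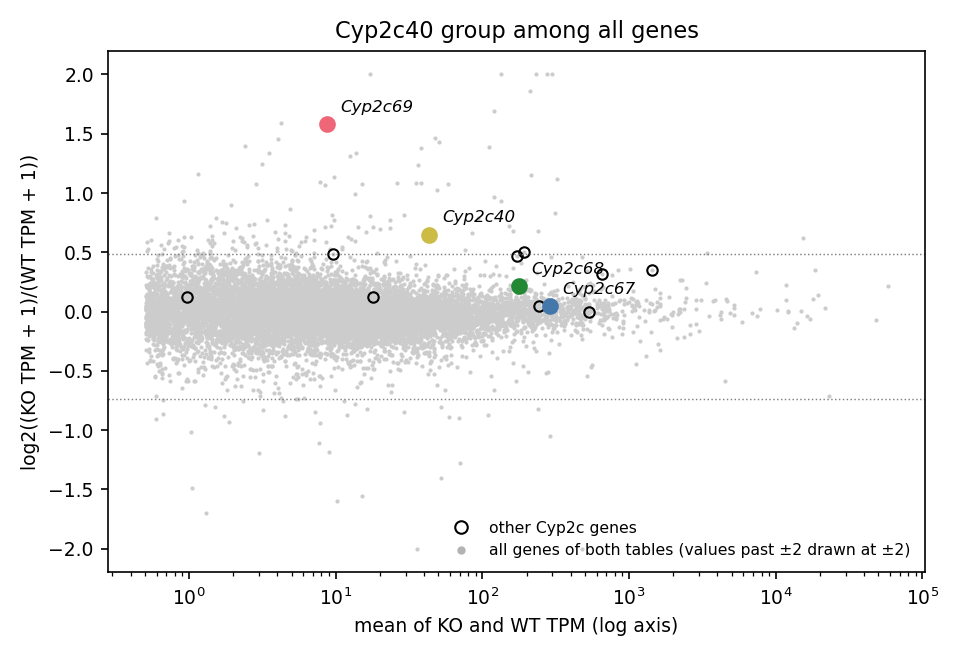
Log2 change against mean level (TPM, log axis) for the genes of both tables with a mean above 0.5 TPM, with the 4 members in colour, other Cyp2c genes as open circles and dotted lines at folds of 1.4 and 0.6. Cyp2c40 and Cyp2c69 lie above the upper line and Cyp2c67 and Cyp2c68 within the band, with the members of lower level showing the larger changes.

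The 4 genes lie side by side within the Cyp2c cluster, and the difference grew along them in chromosomal order, from 0.05 for Cyp2c67 through 0.21 and 0.65 to 1.58 for Cyp2c69, as the level fell. On the side of Cyp2c67 the nearest gene was Cyp2c39, at 1.06 and 0.89 TPM, and Cyp2c38, an epoxygenase of arachidonic acid whose RefSeq span lies within that of Cyp2c39, was at 18.76 TPM in the KO library and 17.16 in the WT library, a log2 change of 0.12. On the other side Cyp2c37, at 199.93 and 144.09 TPM, had a log2 change of 0.47 and fell just under the fold, at 1.38. Next to it Cyp2c54, at 224.75 and 158.09 TPM, was up with a fold of 1.42. At the end of the cluster on the side of Cyp2c67, Cyp2c55, at 11.39 and 7.85 TPM, was just inside the threshold, at a fold of 1.4. Cyp2c29, the most abundant of the subfamily, was at 1620.18 and 1267.23 TPM, a log2 change of 0.35, and Cyp2c50 at 725.66 and 581.02 TPM, a change of 0.32. Cyp2c70, a bile acid hydroxylase, was level at 529.48 and 531.66 TPM, as was Cyp2c44, which lies apart from the cluster, at 247.16 and 239.41 TPM. The pseudogene Cyp2c53-ps was at 2.23 and 1.63 TPM. Cyp2c65 and Cyp2c66 were at no more than 0.08 TPM in either library.

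**Figure D5:**
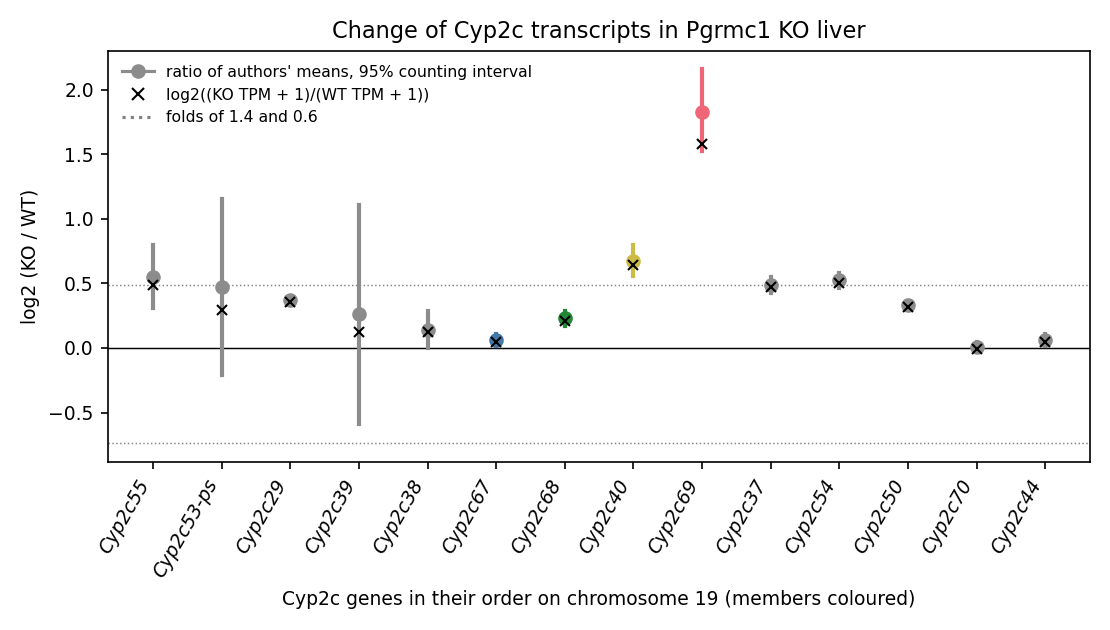
Log2 ratio of KO to WT for the 14 Cyp2c genes with reads in both libraries, in chromosomal order. Filled points with bars are ratios of the authors' means with 95% counting intervals, crosses are TPM + 1 ratios, and the step up through the 4 coloured members ends at Cyp2c69, the highest of all, at 1.83 by the means.

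Of the 11 other Cyp2c genes without the pseudogene, 2 were up and none down, against 0.913% and 0.233% of all genes. The median log2 change of the 8 averaging 1 TPM or more was 0.34, against -0.01 for all 11543 such genes. As a sum, the 10 other Cyp2c genes of both tables were at 3578.45 TPM in the KO library and 2947.43 in the WT library, 21.4% higher in KO, a log2 change of 0.28 against 0.18 for the Cyp2c40 group. Without Cyp2c29 the other genes had a log2 change of 0.22. The group was selected on these same libraries, and the difference between the sums was not tested. The group made up 14.2% of all Cyp2c TPM in WT and 13.3% in KO. The 2 largest log2 changes among the Cyp2c genes were those of Cyp2c69 and Cyp2c40.

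The 5 other P450 genes averaging 10 TPM or more whose log2 change lay nearest to the 0.18 of the summed group, over these 2 libraries, were Cyp2d13 at 0.17, Cyp2j9 at 0.15, Cyp2d40 at 0.23, Cyp2c38 at 0.12 and Cyp3a59 at 0.24. The likeness is one of size between 2 libraries and carries no more than that.

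Of 21 genes of arachidonic acid oxidation in the table, 4 were up and none down, against 0.913% and 0.233% of all genes, and the median of the 19 averaging 1 TPM or more was 0.05, against -0.01 for all such genes. The list was written with earlier results known and includes 8 of the other Cyp2c genes. Besides Cyp2c54 and Cyp2c55, these were the fatty acid hydroxylases Cyp4a10, at 189.06 TPM in KO and 114.47 in WT, and Cyp4a14, at 103.6 and 65.2 TPM. The lowest was the epoxygenase Cyp2j6, with a log2 change of -0.22. Por, the oxidoreductase that gives electrons to all of these P450 enzymes, was at 179.35 and 178.39 TPM.

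Of 22 genes for receptors and transcription factors acting on hepatic Cyp2c, 1 was up and none down, against 0.913% and 0.233% of all genes. The median was -0.0034 for the 21 averaging 1 TPM or more. The 1 was Bcl6, a repressor that opposes STAT5 in male liver, at 22.55 TPM in the KO library and 13.4 in the WT library. Foxa2, a liver forkhead factor, was the lowest, with a log2 change of -0.48.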

How the data were processed

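Liver RNA pools, each from 5 male mice of a genotype, gave 1 stranded total RNA library for Pgrmc1 KO and 1 for WT. Reads came through CASAVA 1.8.2 and, per the labels and the methods, RSEM 1.2.09 with Bowtie on mm10; the annotation is not given in the sources used here. The authors deposited posterior mean TPM per gene (column sums 1005325 in KO and 994702 in WT) and, from EBSeq, the mean signal per library, which is the estimated number of reads over a size factor. The column sums of TPM differ between the libraries, so the library total alone did not set the TPM scale. The 4 comparison columns of the EBSeq output (posterior probabilities and fold changes) were not used.

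The members, gene lists and tests were chosen with earlier results of these data known. From TPM, log2((KO + 1)/(WT + 1)) was computed and genes of both tables with a TPM above 0 in both libraries were called at folds of 1.4 and 0.6. The authors' means were divided by the value of 1 read (1.16 in KO, 0.860 in WT), and Clopper-Pearson intervals at 95% were computed from these reads. They cover counting error only. With 1 library per genotype no test was possible. Named genes were the members, Pgrmc1, every Cyp2c gene, the 5 nearest P450 genes, tissue markers and, per list, genes past the fold with the highest and lowest member. Cyp2a5 and Por were added after their values were seen.

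Members were compared by GENCODE M21 transcripts and RefSeq promoters. Protein identity had been planned. Coding bases were used in its place, also to pick the most identical member. Gene positions were read from RefSeq on GRCm38.p6. Python 3.11.15, pandas 2.3.3, scipy 1.17.1 and biopython 1.88 were used. The calls and intervals were tested on simulated data with independent counting noise for each gene. The simulated data held no reads shared between genes and no spread between mice, so neither was tested. Alternatives were other pseudocounts, filters, folds, scalings, the authors' means and sums over members.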

Additional observations from a re-analysis of the deposited data

How the results depend on the processing

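All values rest on 1 pooled library per genotype, so leaving out a replicate was not possible. No paired analysis was possible because KO and WT were sequenced as 1 library each and nothing was tested. The log2 change of the summed group, 0.18, was 0.14 without Cyp2c40 and 0.35 without Cyp2c67, and between 0.16 and 0.20 under the other alternatives. That of the other Cyp2c genes, 0.28, was 0.30 by the authors' means and 0.29 after centring on the median gene, a shift of 0.01. At folds of 2 and 0.5, 1 member (Cyp2c69) was up, with 31 genes up and 13 down in all, and 0 other Cyp2c genes. With the lower threshold at 0.714, the mirror of 1.4, 140 genes were down. A pseudocount of 0.1 TPM gave 1042 genes up and 263 down, and the authors' means 1072 and 457, with the same 2 members up. By the means 3 other Cyp2c genes were up in place of 2, with Cyp2c37 added at a ratio of 1.402. Among genes averaging 10 TPM or more, 48 were up and 17 down, with 1 of the 3 members tested and 1 other Cyp2c gene up. Summing each member with its most identical one gave log2 changes of 0.30 for Cyp2c40 with Cyp2c68, which takes Cyp2c40 under the fold, 0.82 for Cyp2c69 with Cyp2c40, and 0.09 for Cyp2c67 with Cyp2c69, or 0.12 with Cyp2c40, which was as identical. By the authors' means the share of Cyp2c67 was 52.3% in KO and 57.6% in WT. The direction of each member and of the sum was the same under each alternative run. Depth limits Cyp2c69, with 116 reads in WT, and the division of reads limits each member.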

Other observations

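Genes known to differ between male and female liver were described beside the group, since many Cyp2c genes follow sex and growth hormone. Over all genes of both tables, 0.913% were up and 0.233% down on the same rule. Of 24 male-biased genes, 3 were up and none down, with a median log2 change of 0.04. The 3 were Moxd1 (1.45), Bcl6 (0.71) and Susd4 (0.62), and the lowest was Mup20, a major urinary protein, at -0.71. Of 27 female-biased genes, only 10 had a mean of at least 1 TPM in these male livers, with a median log2 change of -0.04. Both lists were written without any Cyp2c gene, so the absence of the members says nothing of whether they differ by sex. Among the 27, none was up and 1, the steroid hydroxylase Cyp2a4, was down, at 0.22 TPM in the KO library and 70.88 in the WT library, while its near copy Cyp2a5 was at 135.95 and 204.33 TPM. Acot3, an acyl-CoA thioesterase, was the highest of them, with a log2 change of 0.48. Xist was at 0.02 TPM in both libraries, and Ddx3y of the Y chromosome at 40.47 TPM in the KO library and 46.34 in the WT library.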
